A study of Mus musculus with 202 samples.

Results

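Single metaphase II oocytes of F1 daughters were compared between an androgen lineage, whose F0 females had received dihydrotestosterone on a control diet (CD+DHT), and a control lineage, whose F0 females had received vehicle on the same diet (CD+Veh). All were C57Bl/6J mouse oocytes, each sequenced as its own Smart-seq2 library of polyadenylated RNA. An oocyte was kept where its library held at least 100000 counts over gene lines and at least 4000 genes with a count, which left 8 of 15 CD+DHT oocytes and 10 of 15 CD+Veh oocytes. These 18 of 30 oocytes stand among 157 of 202 kept in the whole series under the same rule. Neither the daughters' age nor the androgen dose is stated in the labels used here. The F1 titles name no animal, and the labels do not say how many mothers were used. Oocytes of 1 daughter or litter cannot be told apart from the lineage, so each lineage counted as 1 sample and no F1 difference was tested. Values are therefore given per oocyte, with the SD over oocytes. Intervals of pooled counts cover counting error only, and intervals of shares cover the draw of oocytes, not of animals.

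A metaphase II oocyte has completed the first meiotic division and waits, arrested, for a sperm. Its genome is transcriptionally silent, so its RNA is the maternal store built during growth, and until the embryo starts to transcribe that store is changed by decay and by the lengthening and shortening of poly(A) tails. Polyadenylated RNA was sequenced, so the amount of a message and the length of its tail cannot be told apart here. Dihydrotestosterone is the potent androgen made from testosterone by 5-alpha reductase; it cannot be aromatised to oestrogen. Androgen exposure of a pregnant mouse is used as a model of polycystic ovary syndrome in her daughters, and the daughters' oocytes are the cells that can carry an effect to the next generation.

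The labelled cell type was checked against markers. Of 20 oocyte marker genes, 19 had a count in each lineage, and Oog1 had none. The markers summed to 25916 to 43414 counts per 1000000 gene counts (CPM) in the CD+DHT oocytes, with a median of 34646. In 8 of the 10 control oocytes the sum was 22832 to 49905 CPM, with a median of 38385. Cumulus and granulosa cells surround the oocyte in the follicle, and their 36 markers summed to 1094 to 3667 CPM (median 1467) in CD+DHT and to 1028 to 2887 CPM (median 1389) in the same 8 controls. In all, 25 of the 36 had a count in at least 1 CD+DHT oocyte and 27 in at least 1 CD+Veh oocyte. Serpine2 was at 521 to 1303 CPM in CD+DHT, Spp1 at 0 to 1935, Cyp19a1 at 30.1 to 169 and Akr1c18 at 0 to 248 CPM. The granulosa-defining genes Amh and Amhr2, and Areg, Ereg, Pgr, Lum and Slc38a3, had 0 counts in all 18 oocytes, which allows each up to 0.38 CPM over the pooled CD+DHT counts and 0.136 CPM over the pooled CD+Veh counts.

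Libraries were shallower in the androgen lineage. CD+DHT oocytes held 185620 to 3275603 counts over genes (median 434906) and CD+Veh oocytes 158259 to 7660532 (median 935112). A single count was therefore worth 0.305 to 5.39 CPM in CD+DHT and 0.131 to 6.32 CPM in CD+Veh, which limits what a gene near 10 CPM can show in the shallowest oocytes.

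Control oocytes 7 and 8 stood apart from the other 16. External spike-in RNA, added to every library, took 2.66% and 4.33% of their counts, against 0.267% to 0.485% in the other 8 controls and 0.433% to 0.594% in CD+DHT. Across 1825 genes of at least 100 CPM, the median correlation of log2 levels with the other 16 oocytes was 0.501 for oocyte 7 and 0.436 for oocyte 8, against 0.810 to 0.941 for each of the others. The pair correlated with each other at 0.856. These correlations run over genes, which are not independent replicates. Of the same 1825 genes, 37 and 64 had no count in oocytes 7 and 8, against 0 or 1 in every other oocyte. Their oocyte markers summed to 12987 and 9272 CPM, below all of the other 16. The authors' own normalised table of these lineages leaves both out. Each result is therefore given with all 18 oocytes and with 16, without these 2 controls, and the reason they differ was not tested.

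**Figure D1:**
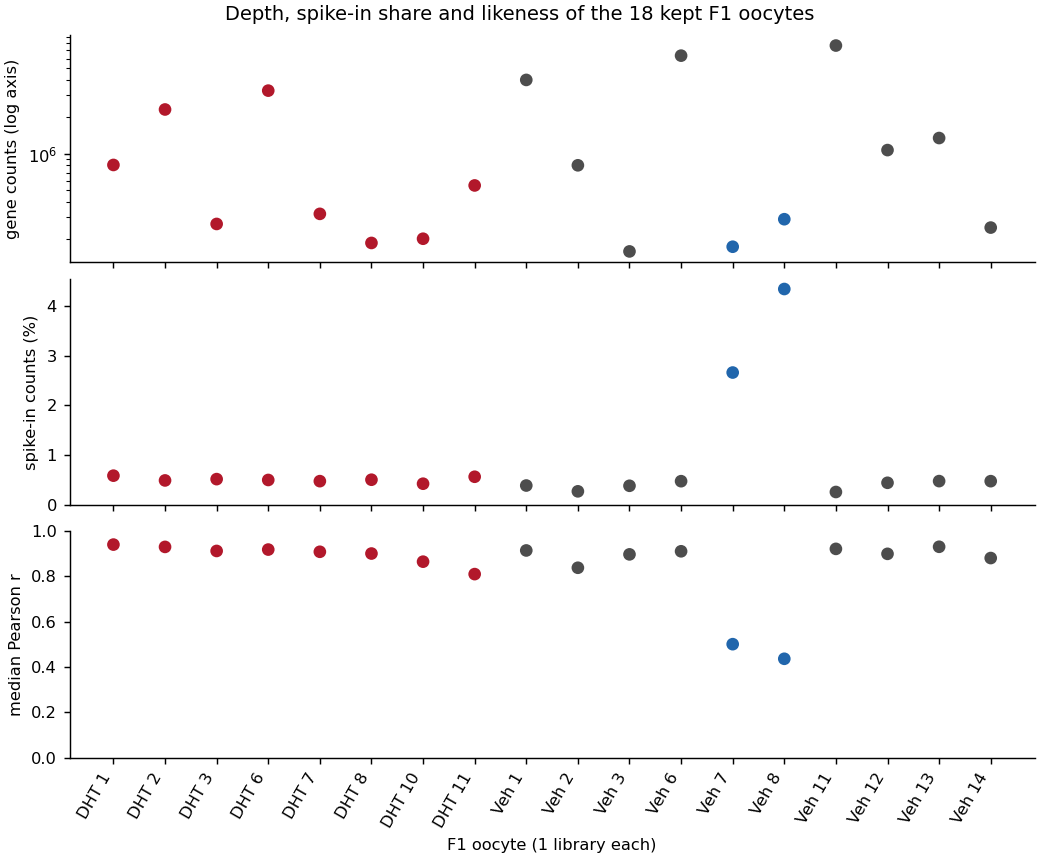
Depth, spike-in share and likeness of the 18 oocytes. Each point is 1 oocyte; the panels show counts over genes on a log axis, the percent of counts from spike-ins, and the median Pearson correlation of log2 levels with the other oocytes. Red points are CD+DHT and grey CD+Veh; the blue points, control oocytes 7 and 8, have the highest spike-in shares (2.66% and 4.33%) and the lowest correlations (0.501 and 0.436).

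The mean level of most genes lay close together in the lineages once oocytes 7 and 8 were set aside. A gene was measured where its CPM averaged at least 20 and at least 8 oocytes had a count, and its level is the mean of log2(CPM + 1) with each oocyte weighted equally. A difference is CD+DHT minus CD+Veh on that scale, which understates the change of low genes, and is called past the fold at 1 or more in size. With all 18 oocytes, 229 of 4578 measured genes were higher past the fold in CD+DHT (5%) and 70 were lower (1.53%). With 16 oocytes, 8 of 4531 were higher past the fold (0.177%) and 52 were lower (1.15%). The median difference went from 0.07 (interquartile range -0.22 to 0.40) to -0.04 (-0.25 to 0.17), and 85.9% of genes then lay within 0.5 of 0, against 70.8% before.

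The higher side of the comparison rested on the 2 controls: without oocyte 7 alone 62 genes were higher past the fold, and without oocyte 8 alone 60. Of the 229 genes higher past the fold, 6 were still past it with 16 oocytes, 196 still lay above 0, and 200 had oocytes 7 and 8 below every other oocyte. The lower side kept more of its genes. Of the 70 genes lower past the fold, 34 were still past it and all 70 still lay below 0, while 32 had oocytes 7 and 8 above every other oocyte. Without control oocyte 2 alone the lower count was 109. In total 2561 genes (55.9%) lay above 0 with 18 oocytes and 2017 (44.1%) did not, against 2028 (44.8%) and 2503 (55.2%) with 16. No gene was higher in every CD+DHT oocyte than in every control, with 18 or with 16 oocytes (0% of each). A gene lower in all of them was found once with 18 oocytes (0.0218%) and in 2 cases with 16 (0.0441%).

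**Figure D2:**
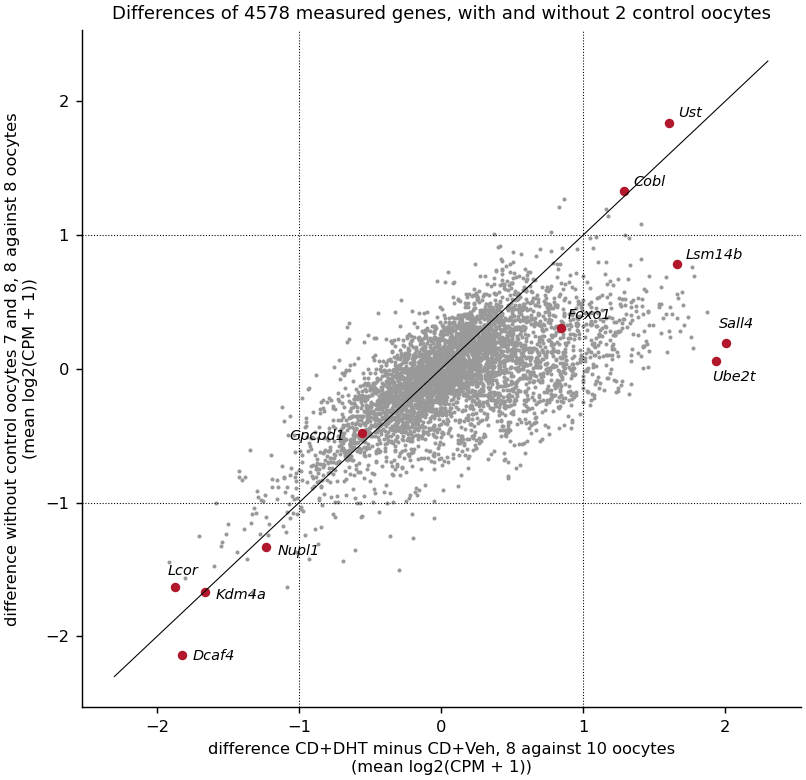
Difference of mean log2(CPM + 1), CD+DHT minus CD+Veh, for each measured gene with all 18 oocytes (x axis) and without control oocytes 7 and 8 (y axis). Each point is 1 of 4578 genes, the dotted lines mark a difference of 1 in either direction and the diagonal marks equal values; most points past 1 on the x axis lie well under it on the y axis (6 of 229 stay past the fold).

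Gpcpd1 was the gene whose lineages did not overlap with 18 or with 16 oocytes. It encodes an enzyme that splits glycerophosphocholine, a breakdown product of membrane phosphatidylcholine, and lies at chr2:132529082-132587729 on the minus strand (GRCm38, ENSMUSG00000027346.15). CD+DHT oocytes held 112 to 164 CPM (median 132), the other 8 controls 165 to 211 (median 196), and control oocytes 7 and 8 185 and 331. The highest CD+DHT oocyte thus sat just under the lowest control. Mean log2 levels were 7.08 ± 0.20 (SD, n = 8 oocytes) and 7.64 ± 0.29 (n = 10), a difference of -0.56, or -0.48 with 16 oocytes. With the other scalings tried (TMM and median of ratios), with thinned oocytes or with the oocytes of the authors' table, no gene kept the lineages fully apart on the lower side (0 genes in each). Pooled over oocytes, the level of Gpcpd1 was 130 CPM in CD+DHT (95% exact Poisson interval 122 to 138) and 174 CPM in CD+Veh (169 to 180).

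Nupl1, a nucleoporin of the central channel of the nuclear pore (chr14:60184612-60251431), was the other gene with no overlap once oocytes 7 and 8 were set aside. Its level was 1.82 to 24.9 CPM in CD+DHT (median 14.54) and 26.11 to 41.5 CPM in the 8 controls (median 30.4), while oocytes 7 and 8 held 23.1 and 20.7 CPM, inside the CD+DHT range. The difference was -1.23 with 18 oocytes and -1.33 with 16.

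Lcor separated the lineages in 79 of 80 pairs of a CD+DHT with a CD+Veh oocyte. Its product is a corepressor that binds nuclear receptors when they hold their ligand. Levels were 0 to 18.2 CPM in CD+DHT (median 11.8), 16.8 to 44.2 in the 8 controls (median 24.6), and 69.4 and 51.7 in oocytes 7 and 8. A single CD+DHT oocyte passed the lowest control, and 7 of 8 CD+DHT oocytes had any count. The difference was -1.88 (-1.63 with 16 oocytes), and pooled levels were 10.25 CPM (interval 8.14 to 12.7) against 23.4 CPM (21.4 to 25.52).

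Other genes lower in at least 76 of the 80 pairs were Rab38, Nlrp4g and Arid5b, and the gene model Gm13152 (78 pairs, a difference of -1.54 and of -1.30 with 16), which has no established name and was chosen after its values were seen. Rab38, a small GTPase of lysosome-related organelles, held 11.3 to 42.7 CPM (median 32.9) in CD+DHT against 37.1 to 92.8 (median 54.8) in the 8 controls, a difference of -1.07 (-1.01 with 16). Arid5b, a DNA-binding protein, held 214 to 395 CPM (median 327) against 322 to 534 (median 451), a difference of -0.51 (-0.50). In both, the CD+DHT median lay at or near the lowest of the 8 controls. Nlrp4g, one of a family of near-identical oocyte Nlrp genes among which counting can split reads, held 206 to 351 CPM (median 273) against 307 to 468 (median 364), a difference of -0.60 (-0.44).

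Foxo1 and Usp28 led the genes that were higher in most pairs. Foxo1, a forkhead transcription factor that insulin signalling through Akt keeps out of the nucleus, lies at chr3:52268336-52353221. It held 498 to 680 CPM in CD+DHT (median 555) and 391 to 562 CPM in the 8 controls (median 457), but 63.6 and 75.8 CPM in oocytes 7 and 8. CD+DHT was higher in 76 of 80 pairs and, with 16 oocytes, in 60 of 64. The difference was 0.84 with 18 oocytes and 0.30 with 16. Usp28, a deubiquitinase (chr9:48985375-49042517), held 408 to 625 CPM (median 547) against 250 to 517 CPM (median 385), with 272 and 265 CPM in oocytes 7 and 8. Its difference, 0.59 with 18 oocytes and 0.48 with 16, moved less, and CD+DHT was again higher in 76 of 80 pairs.

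Klhl18, Ccrn4l, Afap1l2 and Lsm14b were higher in 73 to 75 of the 80 pairs. Lsm14b, an RNA-binding protein of stored messenger particles, held 181 to 715 CPM (median 321) in CD+DHT against 141 to 242 (median 184) in the 8 controls and 5.78 and 10.33 in oocytes 7 and 8, a difference of 1.66 that was 0.78 with 16. Ccrn4l, which encodes nocturnin, held 294 to 576 CPM (median 385) against 161 to 357 (median 269), a difference of 0.74 (0.59). Afap1l2 held 184 to 352 CPM (median 261) against 141 to 249 (median 171), a difference of 0.69 (0.50). All 3 overlapped between the lineages, though the CD+DHT median lay above the highest of the 8 controls in each. Klhl18, an adaptor of a Cul3 ubiquitin ligase, had no count in oocytes 7 and 8 and a difference of 1.78 that was 0.69 with 16.

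**Figure D3:**
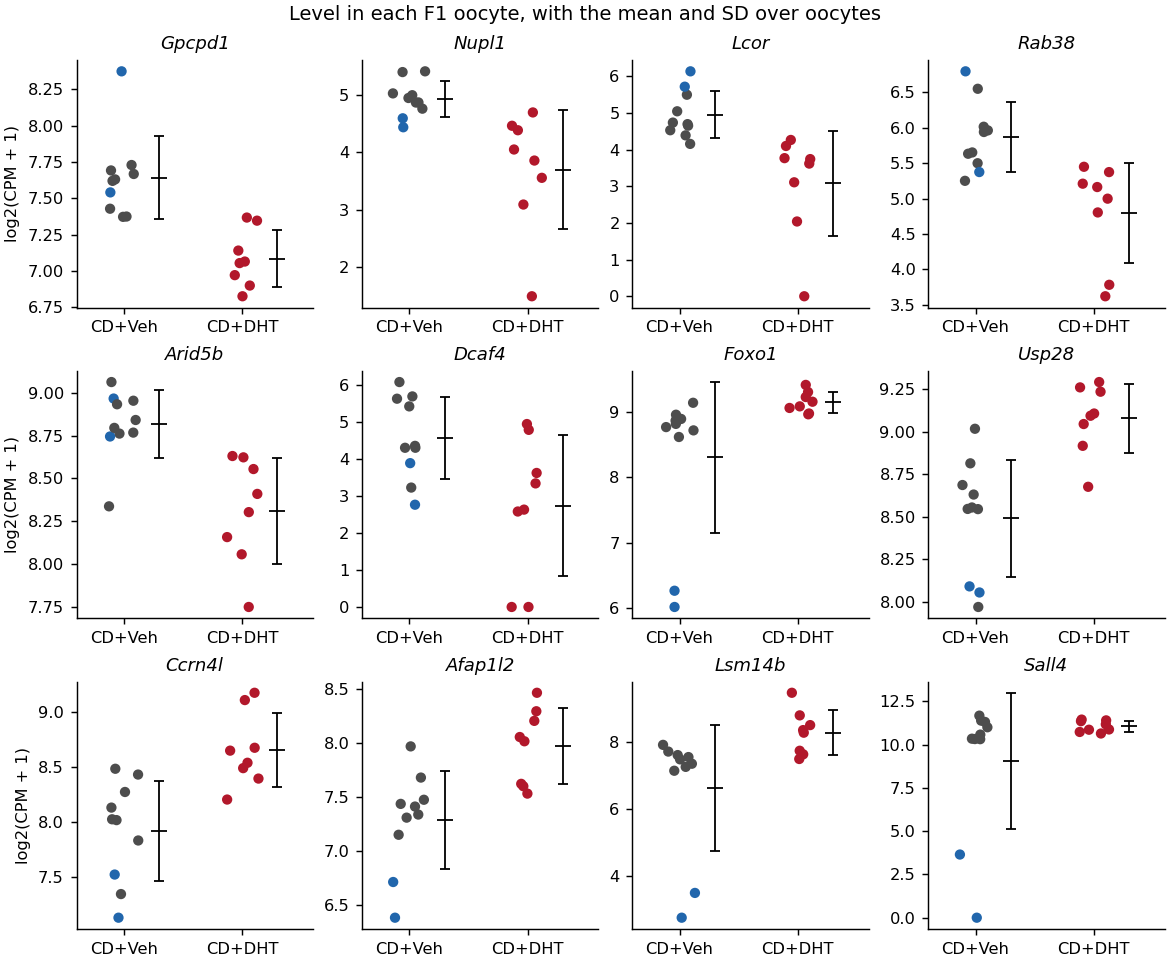
Levels of 12 genes in each oocyte, as log2(CPM + 1). Points are oocytes, red for CD+DHT, grey for CD+Veh and blue for control oocytes 7 and 8; the horizontal mark and bar are the mean and SD of the group. In Gpcpd1 all red points lie under all controls, while in Sall4 the blue points alone lie far from the rest.

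The largest positive differences with 18 oocytes came from genes nearly absent from control oocytes 7 and 8. Sall4, a zinc-finger transcription factor of oocytes and pluripotent cells, held 1604 to 2801 CPM (median 2101) in CD+DHT and 1278 to 3281 (median 1796) in the 8 controls, but 11.6 and 0 CPM in oocytes 7 and 8. CD+DHT thus lay inside the range of the 8 controls, and the difference was 2.004 with 18 oocytes and 0.19 with 16. Ube2t, a ubiquitin-conjugating enzyme of the Fanconi DNA repair pathway, had 375 to 1088 CPM in the 16 oocytes and no count in oocytes 7 and 8. Its difference went from 1.93 to 0.06. Trim28, a corepressor that holds imprints and transposons silent (1.76, then 0.24), and Rnf139, a ubiquitin ligase of the endoplasmic reticulum (1.74, then 0.39), showed the same. So did Tex2, Nfkbiz, Sema4b, Ccnyl1, Ubqln2, Zdhhc24 and Selt, at 1.67 to 1.87 with 18 oocytes and 0.28 to 0.76 with 16, each at 0 in both. Where a gene is at 0 in an oocyte, the size of the difference depends on the pseudocount of 1 CPM and is no bound.

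Without oocytes 7 and 8, the 8 genes higher past the fold were Ust, Fopnl, Insm1, Bahd1, Tmem38b, Mapkbp1, Nanos1 and Dgke. Insm1, a zinc-finger transcription factor of neuroendocrine cells, was the clearest of them. It held 15.6 to 56.5 CPM (median 42.9) in CD+DHT and 12.1 to 21.2 CPM (median 14.6) in the 8 controls, a difference of 1.21, with CD+DHT higher in 61 of 64 pairs. Oocytes 7 and 8 held more than any of the 8, at 34.7 and 99.9 CPM, and with them the difference was 0.83. Pooled levels were 42.1 CPM (interval 37.7 to 46.9) and, over all 10 controls, 15.8 CPM (14.19 to 17.6).

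Of these 8 genes, 6 had at least 1 of the 8 controls at 0, and a single such control weighs heavily on a mean of logs. Ust, which sulfates the uronic acid of chondroitin and dermatan chains, held 16.1 to 74.6 CPM (median 39.8) against 0 to 56.5 (median 16.6), a difference of 1.84. Bahd1, a heterochromatin protein, held 4.98 to 53.9 CPM (median 31.9) against 0 to 44.2 (median 14.26), a difference of 1.19. Fopnl showed how pooling differs: its oocyte-weighted difference was 1.27, at 42.1 to 74.6 CPM (median 53.2) against 0 to 70.7 (median 32.1), while the counts pooled over all oocytes gave -0.04. Nanos1, an RNA-binding translational repressor, held 23 to 69.7 CPM (median 34.8) against 0 to 46.1 (median 29.2), a difference of 1.02. Tmem38b, a cation channel of the endoplasmic reticulum, gave 1.14, Mapkbp1 1.08 and Dgke, a diacylglycerol kinase, 1.001.

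The 52 genes lower past the fold with 16 oocytes were mostly low ones. Their median level was 25.75 CPM, against 72.7 CPM over all measured genes, and 34 of the 52 had no count in at least 1 CD+DHT oocyte. The CD+DHT libraries were the shallower ones here, with a median of 2.47 CPM per count against 0.841 in the 8 controls. With every oocyte thinned to 150000 counts, 41 of the 52 were still lower by 1 or more. By the median oocyte 19 of the 52 were, and by counts pooled over oocytes 4.

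Gadd45gip1 was lower by more than 1 in each of these ways of weighing the oocytes. It encodes a protein of the large mitochondrial ribosomal subunit (chr8:84831522-84835482). CD+DHT oocytes held 3.77 to 23.7 CPM (median 14.6) and the 8 controls 14.96 to 87.1 (median 48.2), while oocytes 7 and 8, at 17.35 and 6.89 CPM, lay with CD+DHT. The difference was -1.67 with 16 oocytes, -1.32 with 18, -1.98 with all 18 thinned and -1.29 from pooled counts. Pooled levels were 12.4 CPM (interval 10.07 to 15.1) and 31.9 CPM (29.6 to 34.3).

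Kdm4a, Ctr9, Jmjd1c and Snrnp70 were among the other lower genes, with wide ranges. Kdm4a, a histone H3 lysine 9 demethylase, held 0 to 71.6 CPM (median 30.02) in CD+DHT against 26.19 to 104 (median 50.3), a difference of -1.66 (-1.67 with 16, -0.53 pooled). Ctr9, a subunit of the Paf1 elongation complex, held 0 to 21.8 CPM (median 11.04) against 12.53 to 63.2 (median 26.9), a difference of -1.50 (-1.63, pooled -0.67). Jmjd1c, a jumonji-domain histone demethylase family member, held 0 to 35.7 CPM (median 9.34) against 9.36 to 51.1 (median 19.9). Its difference of -1.60 (-1.47) turned to 0.22 when counts were pooled, so its direction depended on how oocytes were weighted. With 16 oocytes Jmjd1c averaged under the minimum of 20 CPM and is not among the 52. Snrnp70, the U1 small nuclear ribonucleoprotein subunit, was at 4.98 to 48.5 CPM (median 35.4) against 26.76 to 124 (median 61.9), with no count in oocytes 7 and 8. Its difference was -0.30 with 18 oocytes and -1.51 with 16.

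Dcaf4, a substrate adaptor of Cul4 ubiquitin ligases (chr12:83520466-83541920), had the lowest difference with 16 oocytes. It held 0 to 29.7 CPM (median 7.15) in CD+DHT against 8.35 to 66.5 (median 30.6) in the 8 controls, and 5.78 and 13.8 CPM in oocytes 7 and 8. The difference was -2.14 with 16 oocytes, -1.83 with 18 and -0.44 from pooled counts. Zdhhc6, a palmitoyltransferase, gave -1.92 (-1.44 with 16), Ppp1ca, a catalytic subunit of protein phosphatase 1, -1.80 (-1.56), and Gosr2, a Golgi SNARE, -1.52 (-1.24). Each of these 3 had at least 1 CD+DHT oocyte at 0. Pooled counts gave -0.87 for Zdhhc6, -0.08 for Ppp1ca and -0.86 for Gosr2. Nudc, Txndc2, Ttll11, Galm and Dbndd1 had differences of -1.43 to -1.71 with 18 oocytes and -0.77 to -1.37 with 16, and Zfp612 -1.08 and -1.63. Nudc, Ttll11, Galm and Dbndd1 averaged under the minimum of 20 CPM with 16 oocytes.

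Promoter sequences (RefSeq, GRCm38.p6, 250 bases before to 50 after a gene start) were read for the named genes because the lineages differ in androgen. The sequence searched was the hexamer AGAACA on either strand, the core of a steroid hormone response element, and the full palindrome, AGAACA and TGTTCT with 3 bases of any kind between, of which the hexamer is part. Of 46 named genes, 27 had a promoter in the table and 1 of them, Dcaf4, held the hexamer, at its downstream start. That window is shown with the hexamer in capitals, beside those of Lcor and Foxo1, which hold none, as the lower and higher genes of the nuclear receptor and insulin groups.
Dcaf4, chr12:83525799-83526098, plus strand: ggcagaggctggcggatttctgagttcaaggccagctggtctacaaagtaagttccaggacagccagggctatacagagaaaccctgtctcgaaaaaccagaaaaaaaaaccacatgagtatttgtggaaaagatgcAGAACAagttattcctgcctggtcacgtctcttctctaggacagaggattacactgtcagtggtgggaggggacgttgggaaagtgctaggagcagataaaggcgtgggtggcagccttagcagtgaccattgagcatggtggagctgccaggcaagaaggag
Lcor, chr19:41482432-41482731, plus strand: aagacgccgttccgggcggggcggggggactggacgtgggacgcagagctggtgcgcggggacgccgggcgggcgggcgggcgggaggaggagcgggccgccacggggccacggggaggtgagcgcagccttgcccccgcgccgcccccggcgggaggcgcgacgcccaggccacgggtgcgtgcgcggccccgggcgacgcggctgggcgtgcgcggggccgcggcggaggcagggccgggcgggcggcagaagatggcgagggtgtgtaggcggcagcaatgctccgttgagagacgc
Foxo1, chr3:52268087-52268386, plus strand: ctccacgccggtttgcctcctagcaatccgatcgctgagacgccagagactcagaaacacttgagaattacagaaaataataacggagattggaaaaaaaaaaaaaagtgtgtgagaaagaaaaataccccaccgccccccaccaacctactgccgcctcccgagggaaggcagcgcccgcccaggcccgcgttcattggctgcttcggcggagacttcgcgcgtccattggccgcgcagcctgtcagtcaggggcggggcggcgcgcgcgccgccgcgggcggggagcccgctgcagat
The hexamer was in 14.29% of the 3548 measured genes with a promoter, in 14.29% of the 175 genes higher past the fold with 18 oocytes, in 12% of the 50 lower ones and in 15.8% of the 38 lower with 16. Over all 16729 promoters of genes in the counts it was in 18.6%, and the full palindrome was in 2 of them and in none of the measured genes. A match is a run of letters and not a site.

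Steroid receptor and steroid enzyme genes held 18 measured members, of which 9 were higher and 9 lower with 18 oocytes. With 16 oocytes 6 were higher and the median was -0.17, against 44.8% higher and a median of -0.04 over all genes. The score over the list, the mean log2 level of its measured members, was 6.09 ± 0.25 (SD over 8 oocytes) in CD+DHT and 6.401 ± 0.26 in the 8 controls. Lcor, described above, and Hsd3b7, a bile acid enzyme of the hydroxysteroid dehydrogenase family, had the largest differences with 18 oocytes. With 16 oocytes Lcor averaged under the minimum of 20 CPM, and Akr1c18, a steroid dehydrogenase of a family of near-identical copies, was at -1.20. Akr1c18 is also one of the cumulus and granulosa markers. It had a count in 3 of 8 CD+DHT and 7 of 10 CD+Veh oocytes. Counts pooled over all 18 oocytes gave Akr1c18 a difference of 1.46, so its direction depended on how oocytes were weighted. Hsd3b7 held 9.34 to 65.3 CPM (median 38.7) in CD+DHT against 16.2 to 121 (median 64.1), a difference of -1.04 (-0.97). Both oestrogen receptors had counts in every kept oocyte. Esr2 was at 23.7 to 139 CPM (median 116) against 71.1 to 169 (median 139), a difference of -0.36 (-0.45), and Esr1 differed by 0.08 (0.02). Srd5a1, the 5-alpha reductase that makes dihydrotestosterone, had a count in 2 of 8 CD+DHT and 2 of 10 CD+Veh oocytes, at up to 4.98 CPM.

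The direction of the oocyte identity genes depended on oocytes 7 and 8. With 18 oocytes 14 of 18 measured oocyte markers were higher in CD+DHT, and the median was 0.39. With 16 oocytes 7 of 18 were higher (38.9%), and the median was -0.12. Over all measured genes 55.9% were higher with 18 oocytes and 44.8% with 16, so the share with 16 was near that of all genes. Nobox, a homeobox factor needed for early follicle growth, held 19.9 to 60.2 CPM (median 47.4) in CD+DHT and 39.9 to 121 (median 89.4) in the 8 controls. It was the marker with the largest difference, -1.15 with 18 oocytes and -0.97 with 16. Mos, the kinase that holds the metaphase II arrest, held 332 to 1213 CPM (median 996) against 422 to 1535 (median 1068), with 17.35 and 20.7 in oocytes 7 and 8, a difference that turned from 0.95 to -0.17. Gdf9, an oocyte growth factor of the follicle, turned from 0.74 to -0.24, Zp3, a zona pellucida protein, from 0.78 to -0.22 and H1foo, the oocyte linker histone, from 0.78 to -0.19. Kit, the receptor of the follicle's Kit ligand, stayed higher, at 0.86 and 0.45.

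Genes of the unfolded protein response and cholesterol synthesis showed the same dependence. The counts below stand beside 55.9% of all measured genes higher with 18 oocytes (median 0.07) and 44.8% with 16 (median -0.04). Of 25 measured endoplasmic reticulum stress and quality control genes, 21 were higher with 18 oocytes (median 0.41), and 7 of 24 with 16 (median -0.18). Hyou1, a chaperone of the endoplasmic reticulum, had a difference of 1.41 (0.52 with 16) and Dnajb11, a cofactor of Hspa5, 1.20 (0.10). Of 11 cholesterol genes 10 were higher (median 0.42), and 7 of 11 with 16 (median 0.05). Insig1, which retains the sterol sensor in the endoplasmic reticulum, went from 1.01 to 0.42. The lists of actin, tubulin and cortex genes (19 of 25, then 13 of 24; median 0.49, then 0.05) and of m6A genes (10 of 13, then 7 of 13; median 0.32, then 0.02) did likewise. In the actin and cortex list Cobl, an actin nucleator, was the exception. It held 9.95 to 49.1 CPM (median 27.3) in CD+DHT against 1.49 to 18.96 (median 12.04), a difference of 1.29 with 18 oocytes and 1.33 with 16, where it lay under the minimum of 20 CPM. Tubb3, a beta tubulin, went from 0.86 to 0.13. In the m6A list Rbm15, an adaptor of the writer complex, went from 1.44 to 0.21 and Alkbh5, an eraser, from 1.08 to 0.35.

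Lists of meiotic genes had medians a little under that of all measured genes, which themselves went from 55.9% higher (median 0.07) with 18 oocytes to 44.8% (median -0.04) with 16. Of 32 measured spindle checkpoint, kinetochore and cohesin genes 17 were higher with 18 oocytes (median 0.06) and 9 with 16 (median -0.13), where the list score was 7.104 ± 0.12 in CD+DHT and 7.27 ± 0.08 in the 8 controls. Bub1b, a checkpoint kinase, went from 1.46 to 0.14 and Kif11, a spindle motor, from 1.06 to -0.04. Genes of the arrest and the anaphase-promoting complex were higher in 18 of 32 (median 0.05) and then in 10 of 31 (median -0.13). Cdc26, a subunit of that complex, went from 1.11 to -0.14. Heat shock chaperones (8 of 20, then 3 of 18; median -0.09, then -0.20) had the scores 6.27 ± 0.14 and 6.45 ± 0.18. Among them Cct3, a subunit of the chaperonin, went from 0.74 to -0.24, and Hspd1, the mitochondrial chaperonin, from -0.71 to -0.54. Not every list score was lower in CD+DHT than in the 8 controls. Histone modifiers had 6.84 ± 0.27 and 6.84 ± 0.18, and m6A genes 7.45 ± 0.19 and 7.45 ± 0.20. The actin, tubulin and cortex list had 6.95 ± 0.13 and 6.77 ± 0.14.

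Maternal-effect and stored-RNA genes were mixed, beside 55.9% and then 44.8% of all measured genes higher. Of 26 measured genes of the subcortical maternal complex and maternal effect 14 were higher (median 0.07) and 8 with 16 oocytes (median -0.09), Sall4 and Trim28 having the largest differences. In mRNA storage and decay 16 of 27 and then 15 of 27 were higher (median 0.10, then 0.05). Beside Lsm14b, Zar1, a maternal-effect RNA-binding protein, held 174 to 442 CPM (median 344) in CD+DHT against 141 to 355 (median 207), a difference of 1.53 (0.46). Histone modifiers and remodellers were higher in 22 of 38 and 20 of 39 (median 0.13, then 0.04), led by Kdm4a and by Daxx, a histone H3.3 chaperone at 1.33 and then 0.34.

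Metabolic and insulin-pathway genes gave no shared direction with 16 oocytes. Insulin, PI3K and mTOR genes were higher in 9 of 17 in both counts (median 0.04, then 0.02). Igf2r, the receptor that clears IGF2, held 135 to 298 CPM (median 156) in CD+DHT against 56.5 to 198 (median 116) in the 8 controls, a difference of 1.03 (0.65), and was the largest there with Foxo1. In glycolysis Hk2, a hexokinase, held 12.8 to 64.7 CPM (median 23.7) against 4.90 to 28.2 (median 13.17), a difference of 0.96 (0.89), and Pdhb, of pyruvate dehydrogenase, went from 0.62 to 0.04. The fatty acid elongase Elovl7 was lower, at 9.95 to 52.7 CPM (median 17.7) against 24.9 to 96.8 (median 40.6), a difference of -1.25 (-0.99), and its relative Elovl5 went from 0.81 to 0.02. Orthologues of human polycystic ovary syndrome loci were higher in 8 of 11 and then 7 of 10 (median 0.12, then 0.20), against 55.9% and 44.8% of all measured genes. There Tox3 went from 0.90 to -0.13 and Gata4 from 0.62 to 0.37.

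**Figure D4:**
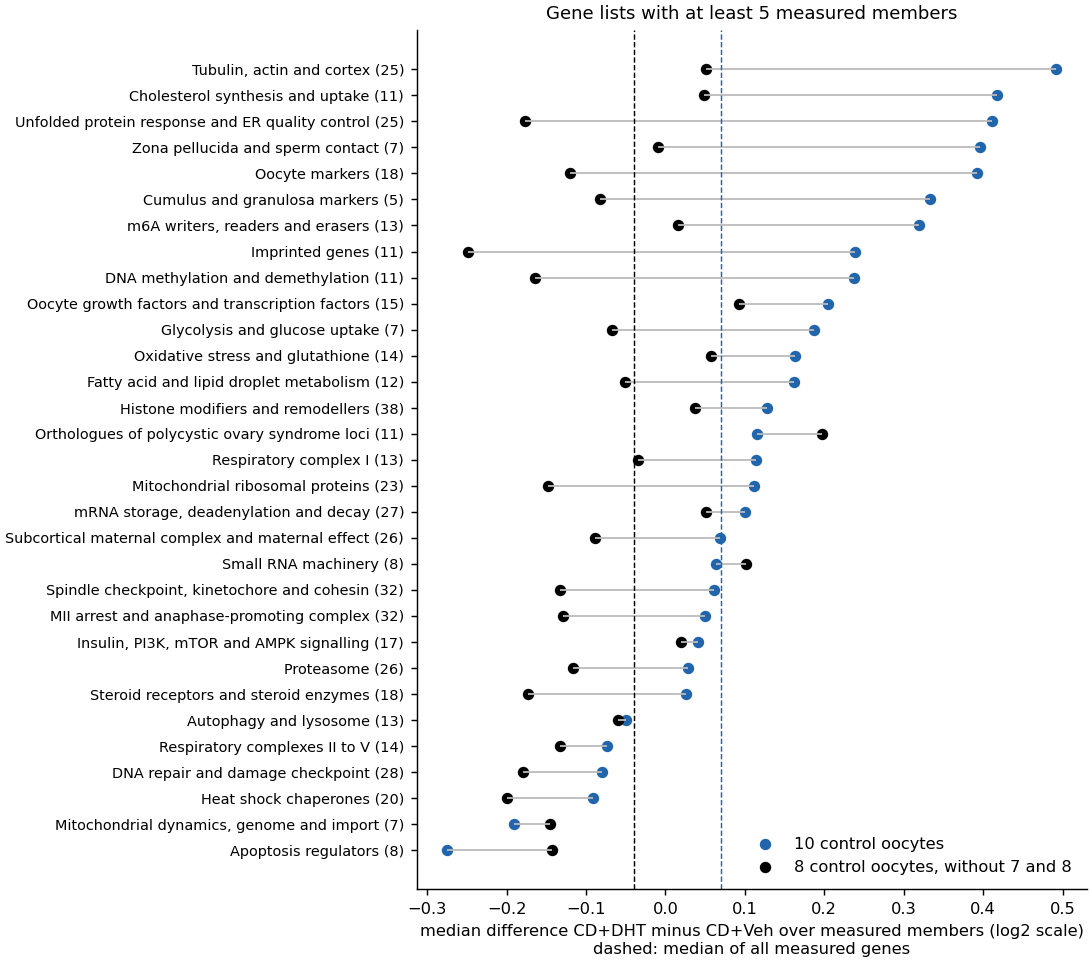
Median difference of each gene list with at least 5 measured members, CD+DHT minus CD+Veh, on the log2(CPM + 1) scale. Each row is a list with its number of measured members; blue points use all 10 controls and black points the 8 controls without oocytes 7 and 8, and the dashed lines in the same colours give the median of all measured genes (0.07 and -0.04). Most black points lie to the left of the blue ones, as for the unfolded protein response list (0.41, then -0.18).

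At equal depth the numbers of genes found lay closer together than as deposited. As deposited, CD+DHT oocytes held 7576 to 11049 genes with a count (8907 ± 1259, SD, n = 8) and the 8 controls 10136 ± 1564. Thinned to 150000 counts, the oocytes held 6977 to 7527 genes (7230 ± 205) and the 8 controls 7468 ± 325, a gap under 1 SD of those controls and over 1 SD of the CD+DHT oocytes. Of 4390 genes with a usual symbol, 4298 were found in equal shares of the 8 and 8 thinned oocytes or in shares that differed by 1 oocyte. The widest gap was in Vps39, a subunit of the vacuole tethering complex, found in 4 of 8 CD+DHT oocytes (50%, 95% exact binomial interval 15.7% to 84.3%) and in 8 of 8 controls (100%, 63.1% to 100%). Jmjd1c, Pgam5, Bcl7c and Cyb5r4 were found in 5 of 8 against 8 of 8, Mettl4 in 4 of 8 against 7 of 8, and Ust, Bahd1, Fbxl7, Ralgps1 and Tmem258 in 8 of 8 against 5 of 8 (62.5%, 24.5% to 91.5%). Those intervals overlap.

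Oocytes of the androgen lineage varied among themselves about as much as the 8 controls did. Over 1836 genes of at least 100 CPM the median SD between oocytes was 0.347 in CD+DHT and 0.322 in the 8 controls, and 53.5% of genes had the larger SD in CD+DHT. Thinned, the medians were 0.401 and 0.395 and the share 49.2%. With oocytes 7 and 8 the control median was 0.575 and the share 17.97%. Correlations of log2 levels over genes were 0.807 to 0.954 (median 0.904) between CD+DHT oocytes, 0.745 to 0.959 (median 0.911) between the 8 controls and 0.702 to 0.964 (median 0.904) across lineages. Pairs from different lineages were thus as alike as pairs from the same one.

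The main axis of variation among the 16 oocytes had 1 oocyte of each lineage at its high end. The first principal component held 38.2% of the variance. Its highest scores were those of CD+DHT oocyte 11 (26) and control oocyte 2 (22), and its lowest those of control oocytes 6, 12, 13 and 14. Jag1, a Notch ligand, reached 13363 and 12593 CPM in the 2 high oocytes, against a median of 5029 over the 16. Wtap, a subunit of the m6A writer, reached 17447 and 12914 CPM against 6299. Insig1 went with them, at 6852 and 5490 CPM against 2149. Surf4, a cargo receptor of the early secretory pathway, ran the other way, at 170 and 222 CPM in those 2 and up to 1980 CPM elsewhere. Spp1, a secreted glycoprotein that cumulus cells also express, had no count in 2 of 8 CD+DHT and 2 of 10 CD+Veh oocytes and reached 1935 CPM in CD+DHT and 1668 CPM in CD+Veh.

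**Figure D5:**
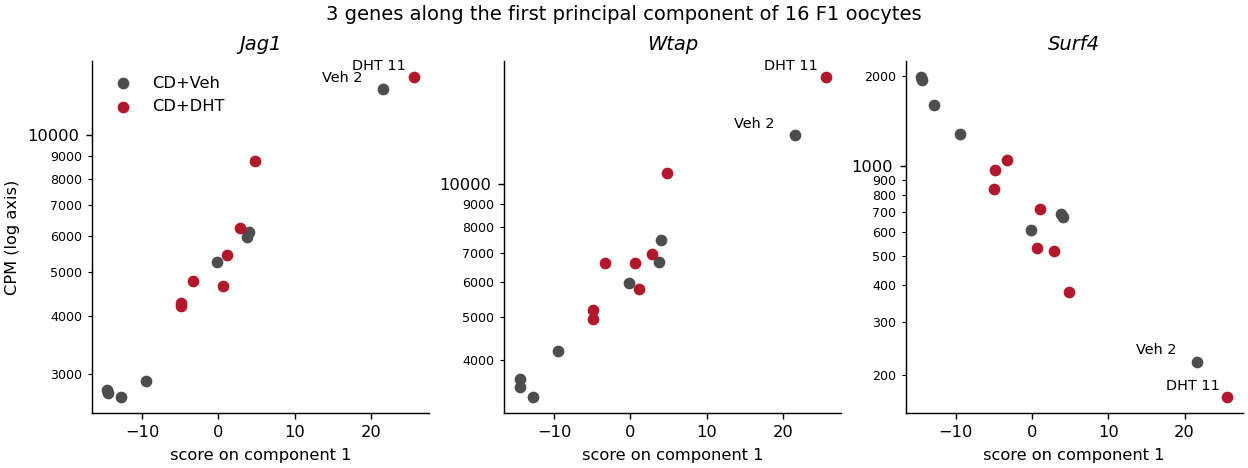
Levels of Jag1, Wtap and Surf4 (CPM, log axis) in the 16 oocytes against their score on the first principal component of the 1836 genes of at least 100 CPM. Points are oocytes, red for CD+DHT and grey for CD+Veh; CD+DHT oocyte 11 and control oocyte 2 lie together at the right, with the highest Jag1 and Wtap and low Surf4, and 4 controls lie at the left.

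Control oocytes 7 and 8 differed from the rest over many genes. Both lay below the other 16 oocytes in 1127 of 4578 genes (24.6%) and above them in 577 (12.6%). Of 4366 measured genes with a count in each of the 16, 309 had none in oocyte 7, 443 in oocyte 8 and 157 in both. Relative to the other 16, the 2 oocytes differed by a median of -3.47 log2 units over the 5 measured cumulus and granulosa markers, -3.18 over the cholesterol list, -2.77 over the unfolded protein response list, -2.17 over the m6A list and -1.39 over the oocyte markers, against -0.37 over all genes. The 36 cumulus and granulosa markers summed to 463 and 44.8 CPM in them, under the 1028 CPM of the lowest other oocyte. The part of those markers in the other gaps was not tested. Sepw1, a small selenoprotein, was higher, at 1701 and 1330 CPM against 41.2 to 117 CPM in the others. Xlr3a, of an X-linked family of near-identical copies, was at 197 and 245 CPM against 3.11 to 19.9.

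The next generation gave a comparison with animals behind it. F2 titles carry a number before the point that was read as the animal, which gives 5 CD+DHT and 4 CD+Veh animals of 3 to 5 oocytes each, and F2 and F1 share no oocyte. With counts summed per animal, edgeR's quasi-likelihood test called 0 of 11197 genes at an adjusted p under 0.05 (0%), with 159 genes (1.42%) at an unadjusted p under 0.05, and DESeq2 called 0 with 387. Of the 46 genes named from F1, all were in that fit and 4 had an unadjusted p under 0.05, which were Nudc (log2 fold change -0.91), Ctr9 (-0.85), Snrnp70 (-0.76) and Zdhhc24 (0.43), each with an adjusted p of 0.9999 by edgeR. The edgeR log2 fold changes of the leading F1 genes in F2 were 0.06 for Gpcpd1, -0.23 for Lcor, -0.18 for Nupl1, -0.20 for Foxo1, 0.26 for Usp28, 0.27 for Insm1 and -0.35 for Gadd45gip1. The differences of the animals' mean log2 levels, on the scale used for F1, were -0.13, -0.80, -0.90, -0.36, 0.13, 0.02 and -0.65 in the same order, so the sign of Gpcpd1 and the size of most values depended on the measure. In each of these genes the value on that scale lay below the edgeR value, whichever its F1 direction. Its median over all genes was not taken, so negative values there are not read as a repeat of F1. Over all measured genes the median SD between F2 animals was 0.44. That is close to or above the F1 differences of Gpcpd1 (-0.48), Usp28 (0.48) and Foxo1 (0.30) with 16 oocytes. Those of Lcor (-1.63), Nupl1 (-1.33), Insm1 (1.21) and Gadd45gip1 (-1.67) were larger in size than 0.44. Between its own F2 animals, Gpcpd1 had an SD of 0.23, Lcor 0.46, Nupl1 0.70, Foxo1 0.44, Usp28 0.16, Insm1 0.66 and Gadd45gip1 0.69. Of these genes only Foxo1 had an SD above the size of its F1 difference with 16 oocytes, and no F1 difference was tested. The genes were picked for large F1 differences or pair shares, which favours differences above an SD. The SD is also that of another generation's animals, so it does not tell whether an F1 difference exceeds variation between F1 animals.

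The longest protein-coding transcript had a median of 3514 bases over the measured genes, 3492 over those higher past the fold and 3106 over those lower with 18 oocytes, and, with 16 oocytes, 4078 over the higher and 2814 over the lower. Median GC content was 47.2%, 49.4% and 48.8% with 18 oocytes, and 49.8% and 48.1% for the higher and lower genes with 16. The genes lower with 18 oocytes were also low in level, with a median of 30.2 CPM against 71.6 over all measured genes. A transcript was matched for 94.2%, 94.8% and 91.4% of these genes.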

How the data were processed

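Single-oocyte libraries (Smart-seq2, polyadenylated RNA) were compared between the F1 CD+DHT and CD+Veh lineages. The main input was the authors' deposited table of raw counts per gene and oocyte. Reads were aligned with STAR 2.4.2a to mm10 and processed with Seurat 2.0, per the submitters' processing notes; how reads were assigned to genes, and whether by strand, is not given in the sources used here, so near-identical copies (Nlrp, Xlr and Akr1c families), overlapping and antisense genes are uncertain. The authors' deposited RPKM table served as an alternative. The authors' deposited normalised table holds the natural log of 1 plus 10000 times a gene's share of the counts: over 15739 genes the largest relative deviation from that form was 5.33e-14. It was used only to see which oocytes the authors kept, 10 CD+DHT (2 of them under the filter here) and 8 CD+Veh, without control oocytes 7 and 8. Of 24489 gene lines, 23995 symbols were used; 92 spike-in lines and the eGFP line (0 counts) were left out.

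Oocytes passed at 100000 counts and 4000 genes; no pair of the 18 was identical. Those left out held 615 to 89420 counts in CD+DHT and 4591 to 71454 in CD+Veh. Levels are log2(CPM + 1), averaged with equal weight per oocyte. Each library is 1 oocyte, so no doublet caller was run. Pooled counts carry exact Poisson and shares exact Clopper-Pearson 95% intervals. Reads are PCR copies without molecular identifiers, so the Poisson intervals cover counting error only. The Clopper-Pearson intervals take oocytes as independent draws and do not cover differences between animals. F2 counts were summed per animal and tested with edgeR 4.0.16 (quasi-likelihood, TMM, Benjamini-Hochberg adjustment) and DESeq2 1.42.0 in R 4.3.3; nothing says that the animals came from separate litters. Other steps were run with scipy 1.17.1, pandas 2.3.3 and numpy 2.4.6 under Python 3.11.15, and the calculations were tested on simulated data.

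The members, 36 gene lists and tests were chosen with earlier results of these data known. Genes whose symbol is a date, a merged name or a Gm or Rik model were passed over for naming. Named genes were the 12 measured genes with the largest difference in each direction whose medians had the same sign, the 6 in each direction with the highest share of oocyte pairs, and the 2 members of each described list with the largest difference, beside genes of known role. The genes named from the 16 oocytes, 8 in each direction, were added after control oocytes 7 and 8 were seen to stand apart; 6 of the 46 named genes averaged under 20 CPM with 16 oocytes and stand outside those counts. Gene positions are those of GRCm38 (GENCODE vM21). Alternatives covered the pseudocount, minimum level, scaling, thinning, weighting, oocyte filter, RPKM and each oocyte left out. The numbers in F1 titles name oocytes and pair nothing. The authors' other normalised tables were not used, and some genes that the rule names are not reported here.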

Additional observations from a re-analysis of the deposited data

Results flagged for a closer look

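In each lineage the highest or lowest oocyte was set against the others by Dixon's ratio, the gap to the nearest oocyte over the whole range, at its 95% critical value. Of 176 sets of oocytes 27 held an oocyte that stood apart. A rate of 1 in 20, or 8.8 sets, would apply to unselected and independent sets. Many of the sets here are genes picked from these same oocytes for their differences, and the sets share oocytes. The 27 can therefore not be set against that rate.

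By this ratio control oocyte 8 was the one most often flagged. Thinned to equal depth it held 6013 genes, against 6867 to 7809 in the other 9 controls. Its mean log2 level was the lowest of its lineage for the lists of mitochondrial dynamics (5.266), cytosolic ribosomal proteins (3.176), the proteasome (5.141) and fatty acid metabolism (4.425). It was also the highest for Gpcpd1, at 8.374 on the log2(CPM + 1) scale, and for Insm1, at 6.657, and it had no count of Zfp612 (0). Control oocyte 7 had the lowest level of the polycystic ovary syndrome orthologues, 6.188.

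CD+DHT oocyte 11 stood apart in 5 values. It had the lowest level of the arrest and anaphase-promoting complex list (6.715) and of the double-stranded RNA sensing list (8.65), the highest of the m6A list (7.895) and of Tex2 (8.402), and no count of Dbndd1 (0). CD+DHT oocyte 10 had the lowest level of the subcortical maternal complex list, 7.638, and of Bahd1, 2.579, and no count of Gosr2, Ttll11, Galm or Ctr9 (0 in each). CD+DHT oocyte 3 had no count of Txndc2 (0) and the lowest Dgke, 3.093.

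Among the controls, oocyte 3 had the lowest Arid5b, 8.337, and no count of Fopnl, Tmem38b or Nanos1 (0 in each). Control oocyte 14 had no count of Bahd1 (0).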

How the results depend on the processing

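With all 18 oocytes, 229 genes were higher and 70 lower past the fold, 0 and 1 did not overlap between the lineages, and 27 of the gene lists had a median above 0. Genes higher past the fold numbered 8 without control oocytes 7 and 8 (chosen after seeing the data), 6 with the oocytes of the authors' table, 9 with the stricter oocyte filter (which leaves 5 CD+DHT and 6 CD+Veh oocytes and drops both of those controls), 13 with pooled counts, 14 by the median oocyte, 70 with a pseudocount of 5 CPM, 134 with RPKM, 403 with a minimum of 5 CPM and 484 with none. Genes lower past the fold numbered 43 with the stricter filter, 14 pooled, 38 by the median, 25 with the pseudocount of 5, 43 with RPKM, 165 thinned, 361 with a minimum of 5 CPM and 569 with none. Higher genes with no overlap numbered 1 with TMM and 16 with the stricter filter. Lower ones numbered 0 with TMM, with median of ratios, thinned and with the authors' oocytes, 13 with the stricter filter and 2 without oocytes 7 and 8. They were not counted for pooled or median values. Fewer oocytes are more easily kept fully apart by order alone, so the 16 and 13 of the stricter filter cannot be set against the counts with 18. A lower minimum also lets more genes be measured, so the counts past the fold at 5 CPM and with none are not comparable shares. Lists with a median above 0 numbered 11 without oocytes 7 and 8, 16 pooled, 8 with the authors' oocytes and 13 with the stricter filter. The share of genes with the larger SD in CD+DHT was 17.97% and, without oocytes 7 and 8, 53.5%. Leaving out each oocyte in turn gave 60 to 308 higher and 53 to 109 lower genes past the fold, 0 to 2 and 1 to 2 with no overlap, 20 to 29 lists, and a share of 12.7% to 25.9%.

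Of 3060 values of 102 genes under alternatives 15 reversed, in 9 genes, counting only genes past the fold with 18 oocytes (59 of the 102). Of all 102, 12 changed sign without oocytes 7 and 8. Without oocytes 7 and 8, Cdc26 was -0.14, Kif11 -0.039 and Serpine2 -0.12. With the authors' oocytes, Cdc26 was -0.088, Daxx -0.22, Kif11 -0.17, Psmd5 -0.090, Rbm15 -0.21 and Serpine2 -0.087. With the stricter filter, Serpine2 was -0.14 and Ube2t -0.11. Pooled, Dnajb11 was -0.16, Jmjd1c 0.22 and Serpine2 -0.12, and by the median Cdc26 was -0.080. Genes near 10 CPM rest on few counts in the shallowest oocytes, and the cause of these changes was not tested. In F2 no setting called a gene, from 0 of 17314 without a filter (655 at an unadjusted p under 0.05) to 0 with each animal left out (145 to 215). No paired analysis was possible because the F1 values come from no test and the shared numbers only name oocytes, and the F2 animals of the lineages carry different numbers.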

Other observations

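Further gene groups of the F1 oocytes were read in the same way, as differences CD+DHT minus CD+Veh with 18 oocytes and then without control oocytes 7 and 8. Over all measured genes 55.9% and then 44.8% were higher, with medians of 0.07 and -0.04, and the lists moved the same way. Of 11 measured imprinted genes 7 and then 4 were higher, with medians of 0.24 and -0.25. Th, tyrosine hydroxylase, held 0 to 54.5 CPM (median 20.8) in CD+DHT and 1.25 to 76.6 (median 27.4) in the 8 controls, but 220 CPM in each of oocytes 7 and 8, a difference of -1.42 and then -0.81. DNA methylation genes were higher in 7 of 11 and then 4 of 13 (medians 0.24 and -0.16). Tet3, the oocyte's 5-methylcytosine dioxygenase, held 726 to 1756 CPM (median 1186) against 879 to 1101 (median 1011), a difference of 0.90 and then 0.23.

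DNA repair genes were higher in 13 of 28 and then 8 of 28 (medians -0.08 and -0.18). Ung, the uracil glycosylase of base excision repair, was at 1.11 and then 0.54, and Rad54l, of homologous recombination, at 0.91 and then -0.07. Proteasome genes were higher in 15 of 26 and then 9 of 25 (medians 0.03 and -0.12), and mitochondrial ribosomal protein genes in 13 of 23 and then 9 of 24 (medians 0.11 and -0.15). Becn1, which starts autophagosome formation, held 35.7 to 88.8 CPM (median 63.9) in CD+DHT against 43.6 to 167 (median 111) in the 8 controls, a difference of -0.80 and then -0.83. Pcmt1, a repair methyltransferase of aged proteins, held 6.23 to 37.7 CPM (median 12.2) against 21.2 to 35.6 (median 29.8), a difference of -1.02 and then -0.84, and Casp8, an initiator caspase, held 7.29 to 42.1 CPM (median 23.7) against 22.38 to 75.8 (median 41.8), a difference of -1.11 and then -0.81.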
